A study of Rattus norvegicus with 21 samples.

Results

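Hepatic gene expression at the 2 highest doses of tert-butylphenyl diphenyl phosphate (BPDP) was set against that at the 2 lowest doses. BPDP belongs to the triaryl phosphate esters, which serve as flame retardants and plasticisers. The low-dose pool held 6 arrays, 3 at 64.6 and 3 at 129.2 mg/kg, and the high-dose pool 6 arrays, 3 at 516.2 and 3 at 1032.5 mg/kg, so that 12 of the 21 arrays of the series entered the comparison. All 12 arrays came from livers of male Harlan Sprague Dawley rats that had received BPDP in corn oil by gavage on 4 consecutive days, with tissue taken on day 5, and the labels give no age. The remaining 9 arrays, 6 of corn oil alone and 3 at 258.1 mg/kg, stood in no tested comparison, and their levels are given as values. They entered 1 alternative fit, of all 21 arrays, where they added to the estimate of the spread. The protocol names 5 corn oil rats against these 6 arrays, so the n of 6 given for corn oil counts arrays. The doses of each pool are the neighbouring steps of the dose series, and every animal compared had been dosed, so the corn oil arrays entered no difference tested here. The protocol assigns 3 rats to each dosed group. P-values of the pooled comparison rest on the spread of the arrays within each pool, which takes in any difference between its 2 doses.

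The liver answers many lipophilic chemicals through nuclear receptors and stress sensors in hepatocytes. The fatty acid receptor PPAR alpha drives peroxisomal and mitochondrial fatty acid oxidation and acyl-CoA hydrolysis in rodents. The receptors CAR and PXR induce drug-metabolising enzymes and pumps, and Nrf2, released from Keap1 under electrophilic stress, drives glutathione and quinone metabolism.

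The question was which transcripts changed along the dose range once animals had been exposed. In a limma fit of the 6 high-dose against the 6 low-dose arrays, 502 of 31042 probe sets (1.62%) passed a Benjamini-Hochberg adjusted p of 0.05. Of these, 338 (1.09%) were higher and 164 (0.528%) lower at the high doses. With each gene represented by 1 probe set, 348 of 14217 genes (2.45%) passed, 245 higher (1.72%) and 103 lower (0.724%). The word "called" below means past this threshold, and "rose" and "fell" mean called higher or lower at the high doses. Counts of called members in the lists below stand beside the 2.45% of all genes called. A call said below to be lost in a changed fit may be lost in other changed fits too. The median called gene differed 1.43-fold, 138 called genes differed at least 1.5-fold and 37 at least 2-fold. All 6 high-dose arrays lay beyond all 6 low-dose arrays for 328 genes (2.31%), of which 224 were called. In the plot of difference against p-value, rises reach further than falls through Acot1 alone, and the other rises reach no further than the falls.

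**Figure D1:**
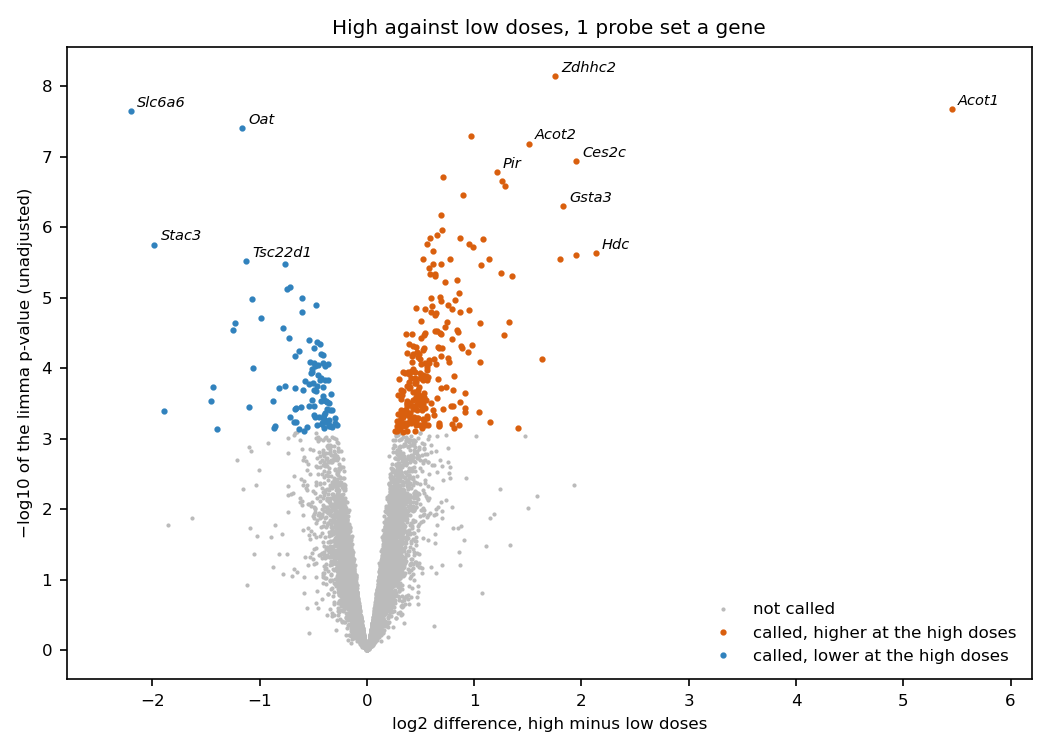
Log2 difference, high minus low doses (horizontal axis), against the negative log10 of the unadjusted limma p-value (vertical axis) for 14217 genes. Orange points are the 245 genes called higher at the high doses, blue points the 103 called lower and grey points the genes not called; Acot1 stands alone at a difference of 5.45.

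The balance of directions moved with the scaling. The median signal of an array averaged 6.37 ± 0.026 in the low-dose pool and 6.33 ± 0.025 in the high-dose pool (SD, n = 6 each). Subtracting each array's median gave 408 probe sets higher and 109 lower, and cyclic loess gave 301 higher and 226 lower. Between pairs of the 12 arrays Pearson's r over probe sets, a description and no test, was 0.987 to 0.995, with a mean of 0.993 within the low-dose pool, 0.991 within the high-dose pool and 0.990 between them. The 5' signal of the Gapdh and beta-actin controls minus their 3' signal, which falls with RNA breakdown, averaged -1.85 ± 0.26 at the low doses and -1.92 ± 0.63 at the high doses (SD, n = 6 each). Within the high pool it averaged -2.30 ± 0.64 at 516.2 mg/kg and -1.54 ± 0.37 at 1032.5 mg/kg (SD, n = 3 each). With it as a covariate 754 probe sets were called. On the first principal component of the 12 arrays, with 26.8% of the variance, the pools overlapped. The array of 129.2 mg/kg replicate 1 scored 12.5. The high-dose arrays of 516.2 mg/kg replicate 2 and 1032.5 mg/kg replicates 2 and 3 scored lower, at 1.76, -5.22 and -4.39. The highest score, 27.6, was that of 516.2 mg/kg replicate 1, with the lowest median signal (6.30). The lowest, -27.2, was that of 129.2 mg/kg replicate 3, with the highest median (6.39), and a link was not tested. On the second component (17.6%) the low-dose arrays scored 2.32 to 16.7 and the high-dose arrays -31.0 to 11.8. Without 129.2 mg/kg replicate 1, 774 probe sets were called.

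The livers carried the transcripts of hepatocytes, and markers of most cell types, hepatocytes included, leaned lower at the high doses. The mean level of 14 hepatocyte markers ranged from 14.04 to 14.16 over the low-dose arrays and from 13.97 to 14.03 over the high-dose arrays, and none of the 14 was called. Of these markers 11 lay below 0, with a median difference of -0.098 on the log2 scale. Albumin (Alb) lay at 15.35 ± 0.0038 at the low doses and 15.34 ± 0.0050 at the high doses (SD, n = 6 each). Of 14 measured Kupffer cell and macrophage markers 13 lay lower at the high doses, with a median difference of -0.37 on the log2 scale, and their mean level ranged from 9.20 to 9.81 at the low doses and from 9.09 to 9.51 at the high doses. Lyz2, the macrophage lysozyme, was the member called (log2 difference -0.59, adjusted p = 0.0488). Its call was lost in 13 of 27 alternative runs, among them array medians subtracted (adjusted p = 0.0762) and the fit without 64.6 mg/kg replicate 3 (adjusted p = 0.128). Clec4f, the Kupffer cell lectin, differed by -0.42 (adjusted p = 0.174) and the haemoglobin scavenger receptor Cd163 by -0.39 (adjusted p = 0.256).

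Of 20 stellate cell and fibroblast markers 17 lay lower, with a median difference of -0.31, and 2 were called lower. The growth factor receptor Pdgfra ran from 8.04 to 8.51 (median 8.48) in the low-dose arrays and from 7.76 to 8.18 (median 7.92) in the high-dose arrays, a 1.40-fold fall (log2 difference -0.48, SE 0.092, adjusted p = 0.0156). Reln, a secreted glycoprotein of stellate cells, fell 1.39-fold (adjusted p = 0.0242), a call lost without 64.6 mg/kg replicate 3 (adjusted p = 0.0709) and not shared by its next probe set (log2 difference -0.47, adjusted p = 0.168). The collagen gene Col3a1 differed by -0.36 (adjusted p = 0.277) and Lrat, which stores retinol as esters, by -0.42 (adjusted p = 0.189). None of 15 endothelial, 9 cholangiocyte, 15 lymphocyte and 7 neutrophil markers was called, with medians of -0.16, -0.0062, -0.12 and -0.098. The cholangiocyte median turned to 0.019 with cyclic loess and 0.029 with array medians subtracted, with 4 of 9 markers above 0. In 7 red cell markers the transferrin receptor Tfrc, which hepatocytes and dividing cells also express, was called higher (log2 difference 0.81, adjusted p = 0.0462). The Tfrc call was lost in 16 of 28 alternative runs, its next probe set (adjusted p = 0.213) among them. Over all 14217 genes the median difference was -0.0011. In whole liver RNA, fewer cells of a type and less RNA per cell cannot be told apart.

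**Figure D2:**
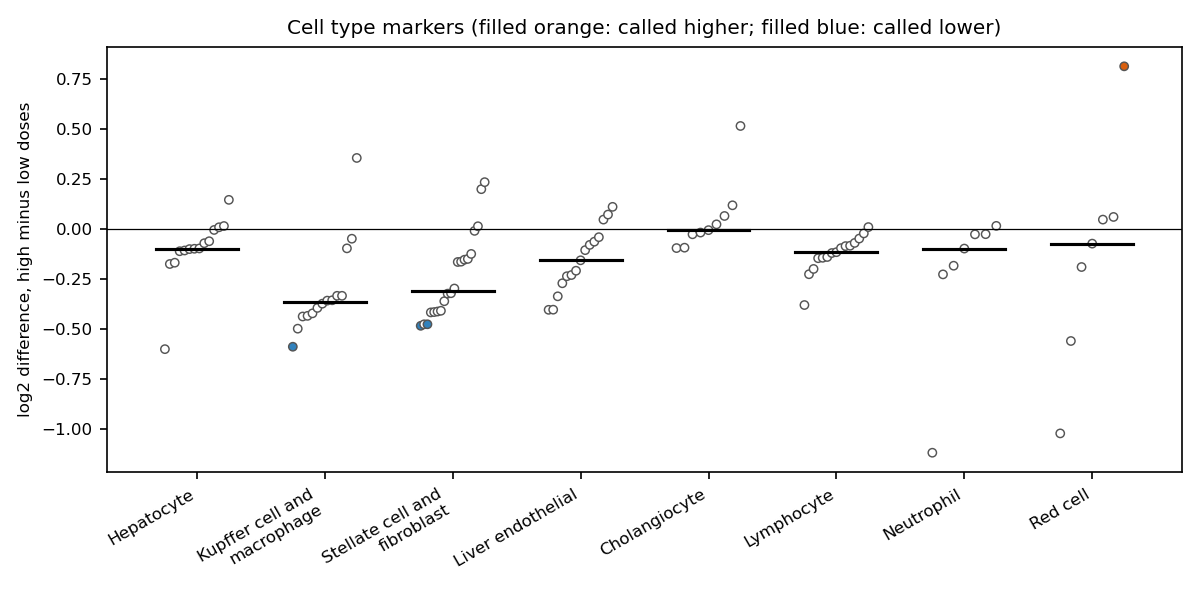
Log2 difference, high minus low doses (vertical axis), for each measured marker of 8 cell types (horizontal axis). Each circle is a gene, the bar is the median of the list, and filled circles are called (Tfrc in orange, higher; Lyz2, Pdgfra and Reln in blue, lower).

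The largest rise belonged to Acot1, the cytosolic acyl-CoA thioesterase that splits fatty acyl-CoA into free fatty acid and coenzyme A. The probe set of Acot1 read 3.55, 3.57 and 3.23 at 64.6 mg/kg and 3.84, 3.43 and 3.81 at 129.2 mg/kg. At 516.2 mg/kg it read 8.46, 8.32 and 8.13, and at 1032.5 mg/kg 7.38, 11.46 and 10.37. The low-dose levels lay below the lowest of the arrays' lower quartiles (4.95), as did the corn oil arrays at 3.60 ± 0.12 (SD, n = 6), so no fold is given; the log2 difference was 5.45 (SE 0.52, adjusted p = 0.000195). At 258.1 mg/kg Acot1 already averaged 7.46, and the levels at 516.2 and 1032.5 mg/kg were not separated by the test between those doses (adjusted p = 0.654).

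The next largest rises were those of Hdc, Ces2c, Abcc3, Gsta3 and Snx10. Ces2c and Abcc3 stand on the list of CAR and PXR targets, Abcc3 also on that of Nrf2 targets, and Gsta3 is described with the Nrf2 targets. Hdc, the histidine decarboxylase that makes histamine, ran from 7.18 to 8.25 (median 7.80) in the low-dose arrays and from 9.06 to 11.01 (median 9.89) in the high-dose arrays, a 4.39-fold rise (log2 difference 2.13, SE 0.29, adjusted p = 0.00237). The pools did not overlap, which the rule for the largest rises required, and the group means in order of dose were 7.40, 8.13, 8.79, 9.63 and 10.17. Ces2c, a carboxylesterase of the endoplasmic reticulum that hydrolyses esters, lay between 10.31 and 10.74 (median 10.47) at the low doses and between 11.57 and 13.21 (median 12.64) at the high doses, a 3.86-fold rise (log2 difference 1.95, SE 0.21, adjusted p = 0.000449). Abcc3, the basolateral pump that exports conjugates and bile acids into blood, ran from 6.95 to 9.10 (median 8.01) in the low-dose arrays and from 9.39 to 10.38 (median 9.96) in the high-dose arrays, a 3.86-fold rise (log2 difference 1.95, SE 0.27, adjusted p = 0.00237). At 129.2 mg/kg Abcc3 averaged 8.45 against 7.50 at 64.6 mg/kg, a step that was not called (adjusted p = 1). Snx10, an endosomal sorting protein, lay between 5.52 and 6.77 (median 5.89) at the low doses and between 7.22 and 8.50 (median 7.79) at the high doses, a 3.49-fold rise (log2 difference 1.80, SE 0.25, adjusted p = 0.00241).

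Zdhhc2, an enzyme that attaches palmitate to proteins, had the smallest p-value of all genes. It ran from 6.52 to 7.60 (median 7.15) in the low-dose arrays and from 8.58 to 9.12 (median 8.88) in the high-dose arrays, a 3.37-fold rise (log2 difference 1.75, SE 0.15, adjusted p = 0.000195), and the 6 high-dose values spanned a narrower range than the 6 low-dose values. Pir, which encodes the nuclear iron-binding protein pirin, lay between 7.59 and 8.05 (median 7.81) at the low doses and between 8.62 and 9.43 (median 9.10) at the high doses and rose 2.31-fold (log2 difference 1.21, SE 0.13, adjusted p = 0.000512). Aig1, a hydrolase of fatty acid esters of hydroxy fatty acids, rose 2.39-fold (adjusted p = 0.000571) on its brighter probe set, while its next probe set differed by -0.036 (adjusted p = 0.898). In the plot of levels by array, the high-dose points of the 4 rising genes all stood above the low-dose points, as their selection required.

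**Figure D3:**
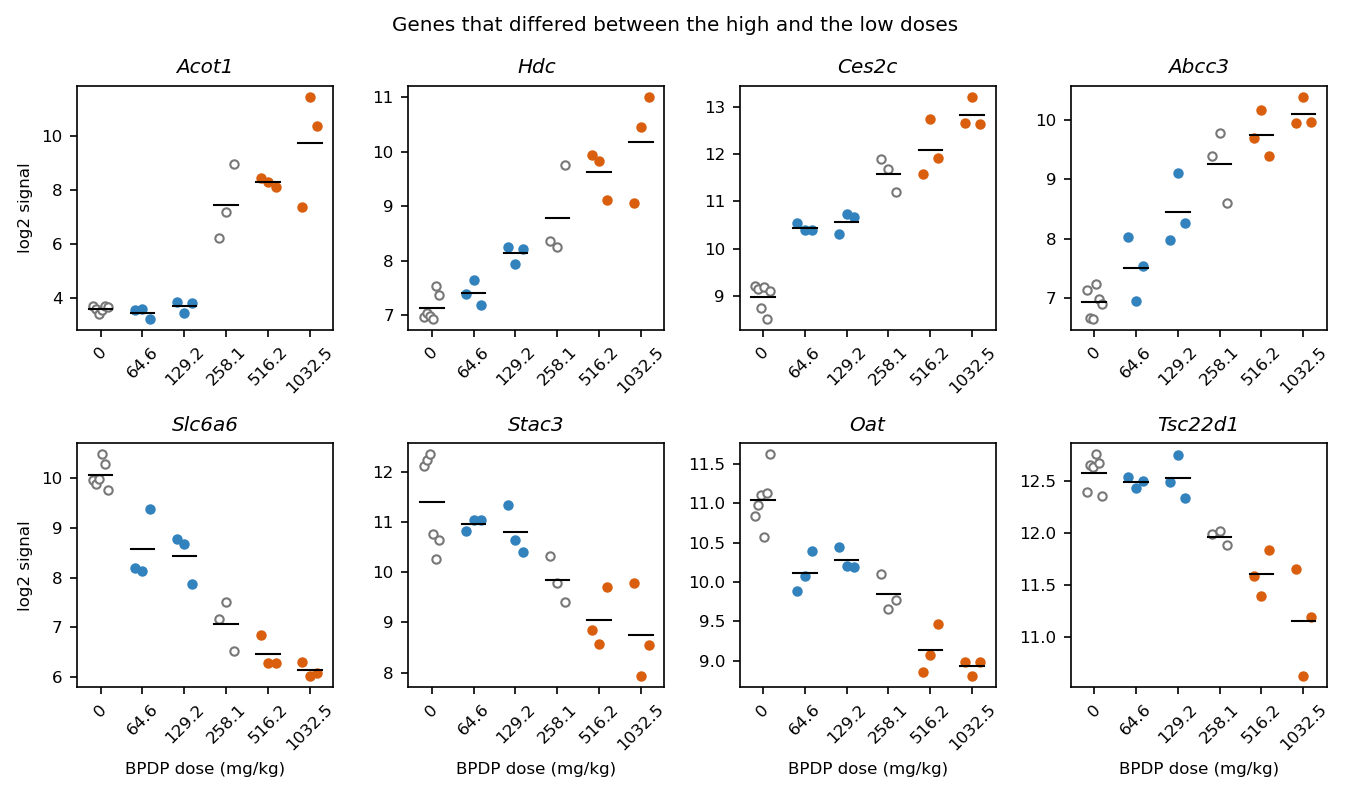
Log2 signal (vertical axis) of 8 genes in every array, by BPDP dose in mg/kg (horizontal axis, 0 is corn oil). Blue points are the low-dose arrays, orange points the high-dose arrays, open circles the corn oil and 258.1 mg/kg arrays outside the comparison, and bars the group means. The blue and orange points do not overlap for any of the 8 genes, a condition of their selection.

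Of 45 measured genes of the PPAR alpha axis 15 rose and none fell, or 33.3% against 2.45% of all genes in either direction, and the median difference was 0.39. The list was called in 12 to 16 members when each array was left out in turn. Among the enzymes of peroxisomal beta-oxidation, Ehhadh, which carries out the hydration and dehydrogenation steps, ran from 12.22 to 12.76 (median 12.52) in the low-dose arrays and from 13.05 to 14.06 (median 13.71) in the high-dose arrays, a 2.19-fold rise (log2 difference 1.13, SE 0.16, adjusted p = 0.00241). Ech1, an isomerase for unsaturated fatty acids, averaged 11.28 ± 0.36 at the low doses and 12.33 ± 0.46 at the high doses (SD, n = 6 each), a 2.08-fold rise (adjusted p = 0.0147), and Pex11a, which promotes peroxisome division, rose 1.88-fold (adjusted p = 0.0354). Cyp4a1, the omega-hydroxylase of fatty acids and a classical marker of PPAR alpha activity in rats, lay between 11.64 and 12.40 (median 12.12) at the low doses and between 12.15 and 13.46 (median 12.998) at the high doses. Its ranges overlapped between the pools and it rose 1.88-fold (log2 difference 0.91, SE 0.19, adjusted p = 0.0253), a call lost without 64.6 mg/kg replicate 3 (adjusted p = 0.0689) or 4 other single arrays. Cyp4a1 was the sole member called among 10 omega-hydroxylases of the Cyp4 family.

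Other PPAR alpha targets with roles outside oxidation also rose. Vnn1, the pantetheinase that releases pantothenate from the breakdown of coenzyme A, ran from 10.08 to 11.05 (median 10.47) in the low-dose arrays and from 11.50 to 12.06 (median 11.80) in the high-dose arrays, a 2.43-fold rise (log2 difference 1.28, SE 0.15, adjusted p = 0.000632). Aqp7, a channel for glycerol and water, lay between 6.003 and 6.87 (median 6.28) at the low doses and between 7.27 and 8.40 (median 7.64) at the high doses, a 2.55-fold rise (log2 difference 1.35, SE 0.20, adjusted p = 0.00301). Cidea, a lipid droplet protein, rose 3.09-fold (adjusted p = 0.0139), with overlapping pools and an adjusted p of 0.0507 under a variance trend with robust estimation. The receptor gene Ppara itself lay at 5.999 ± 0.29 at the low doses and 6.12 ± 0.10 at the high doses (SD, n = 6 each) and was not called (adjusted p = 0.681). Several textbook targets were not called either: Cpt1a, the gate of mitochondrial fatty acid import, differed by -0.0025 (95% interval -0.25 to 0.24), Pdk4, which restrains pyruvate oxidation, by -0.19 (-0.75 to 0.37), and the fatty acid binding protein Fabp1 by 0.045 (-0.091 to 0.18). Angptl4, an inhibitor of lipoprotein lipase, differed by 0.60 (interval -0.045 to 1.25, adjusted p = 0.381). The lipid droplet coat gene Plin2 differed by -0.40 (adjusted p = 0.0979), in the direction opposite to most of the list.

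The acyl-CoA thioesterases held the highest share of rises among the 52 lists, 6 of 11 (54.5%), with a median difference of 0.49. Of these rises Acot1, Acot2, Acot3 and Acot4 were also counted in the PPAR alpha axis. Besides Acot1, the mitochondrial enzyme Acot2 ran from 9.53 to 10.03 (median 9.69) in the low-dose arrays and from 10.81 to 11.85 (median 11.13) in the high-dose arrays, a 2.84-fold rise (log2 difference 1.51, SE 0.16, adjusted p = 0.00029). The peroxisomal enzymes Acot3, Acot4 and Acot8 rose 1.97-fold, 2.43-fold and 1.43-fold (adjusted p = 0.0111, 0.00917 and 0.0203), and the mitochondrial Acot9 rose 1.41-fold (adjusted p = 0.0178). Acot8 lost its call with cyclic loess (adjusted p = 0.0634) and without 64.6 mg/kg replicate 3 (adjusted p = 0.0617). Acot7, Acot12 and Acot13 differed by 0.25, 0.37 and 0.21 and were not called. Acot1 to Acot6 are near copies that neighbour one another in the rat genome, so signal from one can reach the probes of another, and their separate levels are uncertain.

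Of 45 peroxisomal enzymes and peroxins 11 were called higher and 1 lower, 26.7% against 2.45% of all genes. This list is not separate from those above. Its rises Acot3, Acot4, Ech1, Ehhadh and Pex11a were also counted in the PPAR alpha axis, and Acot8 among the thioesterases. Abcd2, an importer of very long-chain acyl-CoA, lay between 4.94 and 5.79 (median 5.46) at the low doses and between 6.18 and 7.22 (median 6.64) at the high doses, a 2.39-fold rise (log2 difference 1.25, SE 0.18, adjusted p = 0.00297). Abcd3, its partner in the peroxisomal membrane, rose 1.40-fold (adjusted p = 0.0128), the coenzyme A hydrolase Nudt7 1.61-fold (adjusted p = 0.0091) and Pex19, a chaperone of peroxisomal membrane proteins, 1.59-fold (adjusted p = 0.0115). The exception was Hao2, an oxidase of long-chain hydroxy acids in peroxisomes, which lay between 12.14 and 12.96 (median 12.54) at the low doses and between 10.98 and 12.24 (median 11.77) at the high doses and fell 1.81-fold (log2 difference -0.85, SE 0.20, adjusted p = 0.0445).

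In mitochondrial fatty acid oxidation and ketone synthesis, 6 of 29 members rose (20.7%, against 2.45% of all genes) and none fell, with a median of 0.21. Cpt2, Decr1 and Hadhb among them were also counted in the PPAR alpha axis. Acat1, which acts on acetoacetyl-CoA, ran from 11.55 to 12.34 (median 11.98) in the low-dose arrays and from 12.43 to 13.25 (median 12.81) in the high-dose arrays, a 1.80-fold rise (log2 difference 0.85, SE 0.15, adjusted p = 0.00907). Cpt2, the inner membrane carnitine transferase, rose 1.73-fold (adjusted p = 0.00555), Decr1, the dienoyl-CoA reductase, 1.52-fold (adjusted p = 0.00529) and Hadhb, of the trifunctional protein, 1.41-fold (adjusted p = 0.0308). Eci1, an enoyl-CoA isomerase, rose 2.10-fold (adjusted p = 0.00252) on its brighter probe set and differed by 0.019 (adjusted p = 0.956) on the next. Acadm, the medium-chain dehydrogenase, differed by 0.085 (interval -0.075 to 0.24). None of 68 subunits of oxidative phosphorylation was called, although 51 lay above 0, with a median of 0.059 that became 0.016 with cyclic loess.

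Calls in lipid synthesis had no common direction. Of 35 genes of fatty acid and triglyceride synthesis, Me1 rose and Elovl5 and Pklr fell, 8.57% called against 2.45% of all genes. Me1, the cytosolic malic enzyme that supplies NADPH, ran from 8.67 to 9.77 (median 9.05) in the low-dose arrays and from 9.90 to 11.12 (median 10.49) in the high-dose arrays, a 2.51-fold rise (log2 difference 1.33, SE 0.22, adjusted p = 0.00733). Elovl5, an elongase of polyunsaturated fatty acids, fell 1.33-fold (adjusted p = 0.023), and Pklr, the liver pyruvate kinase, 1.53-fold (adjusted p = 0.0324). Both of these calls were lost without 64.6 mg/kg replicate 2 or 3, with adjusted p up to 0.0673 for Elovl5 and 0.0824 for Pklr, and neither gene's next probe set passed (adjusted p = 0.597 and 0.0651). Fasn, fatty acid synthase, lay at 10.89 ± 0.59 at the low doses and 11.07 ± 0.26 at the high doses (SD, n = 6 each) (adjusted p = 0.756). Scd, the stearoyl-CoA desaturase, lay between 8.08 and 10.84 (median 9.18) at the low doses and between 7.19 and 9.67 (median 7.97) at the high doses, and its spread within each pool left the difference of -1.06 uncalled (interval -2.08 to -0.035, adjusted p = 0.329).

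Among 25 genes of cholesterol synthesis and uptake, 2 fell and none rose. Abcg8, which pairs with Abcg5 to export sterols into bile, ran from 5.85 to 6.90 (median 6.33) in the low-dose arrays and from 5.03 to 5.46 (median 5.35) in the high-dose arrays, a 2.11-fold fall (log2 difference -1.07, SE 0.17, adjusted p = 0.00456). Insig2, which holds the sterol sensor complex in the endoplasmic reticulum, fell 1.83-fold (adjusted p = 0.029, and 0.0795 without 64.6 mg/kg replicate 3). In the lipoprotein list of 24, Apoa4, an apolipoprotein of triglyceride-rich particles, lay between 11.57 and 12.19 (median 11.98) at the low doses and between 9.95 and 11.42 (median 10.65) at the high doses, a 2.34-fold fall (log2 difference -1.23, SE 0.21, adjusted p = 0.00733). Mttp, which loads lipid onto apolipoprotein B, rose 1.28-fold (adjusted p = 0.0428), a call lost with cyclic loess (adjusted p = 0.0643) and without 64.6 mg/kg replicate 3 (adjusted p = 0.0998). In the lipid droplet list of 22, Mgll, the monoglyceride lipase, rose 1.60-fold (adjusted p = 0.00907), while its next probe set, at a log2 difference of 0.82, did not pass (adjusted p = 0.117).

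**Figure D4:**
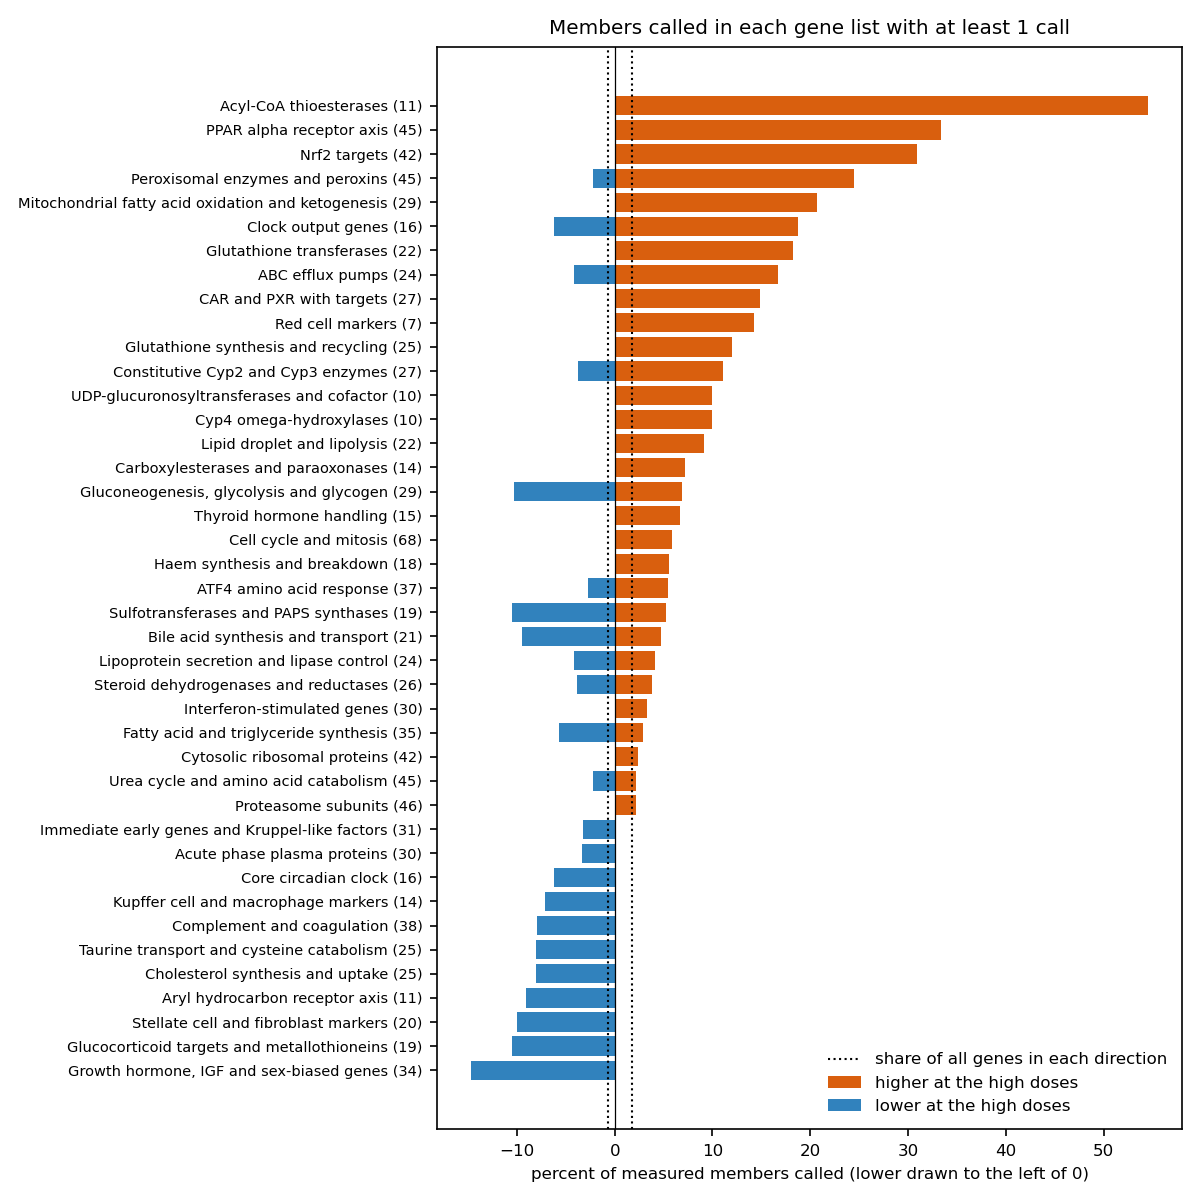
Percent of measured members called higher (orange, to the right of 0) and lower (blue, to the left of 0) for each gene list with at least 1 call (vertical axis, number measured in brackets). Dotted lines mark the share of all 14217 genes called in each direction, 1.72% higher and 0.724% lower; the acyl-CoA thioesterases, the PPAR alpha axis and the Nrf2 targets have the longest bars.

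Nrf2 targets formed the other large set of rises. Of 42 measured members 13 (31.0%) were called higher and none lower, with a median difference of 0.36 and 10 to 15 calls when each array was left out. Me1 among them was also counted in the PPAR alpha axis. Gsta3, a glutathione transferase of the alpha class, ran from 8.10 to 9.47 (median 8.83) in the low-dose arrays and from 10.06 to 10.998 (median 10.69) in the high-dose arrays, a 3.55-fold rise (log2 difference 1.83, SE 0.22, adjusted p = 0.00103). Akr7a3, an aldehyde reductase active on aflatoxin dialdehyde, lay between 12.29 and 12.87 (median 12.51) at the low doses and between 13.12 and 13.87 (median 13.48) at the high doses, a 1.93-fold rise (log2 difference 0.95, SE 0.13, adjusted p = 0.00203). Aldh1a1, a retinaldehyde dehydrogenase, rose 1.83-fold (adjusted p = 0.00188), Gsta4 1.63-fold (adjusted p = 0.00188), the conjugate pump Abcc4 1.70-fold (adjusted p = 0.0147) and the carbonyl reductase Cbr1 1.47-fold (adjusted p = 0.0194). Akr1b8 averaged 4.81 ± 0.13 at the low doses and 5.24 ± 0.20 at the high doses (SD, n = 6 each); its low-dose level lay below the same quartile, so its rise (adjusted p = 0.0333) is given without a fold.

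Glutathione synthesis rests on glutamate-cysteine ligase, whose modifier subunit Gclm and catalytic subunit Gclc both rose. Gclm ran from 11.22 to 11.98 (median 11.63) in the low-dose arrays and from 12.23 to 12.47 (median 12.31) in the high-dose arrays, a 1.60-fold rise (log2 difference 0.68, SE 0.11, adjusted p = 0.00444), and its 6 high-dose arrays were the more uniform, with an SD of 0.087 against 0.26. Gclc rose 1.67-fold (adjusted p = 0.023), which became 0.0681 without 64.6 mg/kg replicate 3, and its next probe set gave 0.0971. In the 25 genes of glutathione synthesis and recycling, the mitochondrial glutaredoxin Glrx2 was the remaining call, 1.40-fold higher (adjusted p = 0.0269, and 0.0687 without 64.6 mg/kg replicate 2). In the 22 glutathione transferases, Gsta3, Gsta4, Gstt3 and Mgst2 rose, Gstt3 by 1.79-fold (adjusted p = 0.00866) and Mgst2 by 1.32-fold (adjusted p = 0.0301). These families hold close copies, so signal may be shared between members. Nqo1, the quinone reductase often used as the index of Nrf2, lay between 8.57 and 9.78 (median 8.75) at the low doses and between 9.22 and 9.94 (median 9.61) at the high doses and was not called (log2 difference 0.66, interval 0.26 to 1.05, adjusted p = 0.0998), while a fit with 1 coefficient a dose gave 0.0414. Srxn1 and Txnrd1, which repair oxidised thiols, differed by 0.58 (adjusted p = 0.0543) and 0.35 (adjusted p = 0.186), and Hmox1, haem oxygenase, by 0.63 (adjusted p = 0.243). The transcript of Nrf2 itself, Nfe2l2, differed by -0.048 (interval -0.39 to 0.30) and that of Keap1 by 0.23 (interval 0.038 to 0.42).

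The promoters of Gclm, Me1 and Pir are shown because these genes rose together and hold the letters of the antioxidant response element core, TGACNNNGC, which was searched on both strands. Sequences are RefSeq entries of the assembly GRCr8, 300 bases each around the start site, written 5′ to 3′ on the strand of the gene, with matches in capitals. Gclm lies on the plus strand of chr2:213031885-213032184, with a match whose first base is at -172 from the start site. Me1 lies on the minus strand of chr8:96540195-96540494, with a match at -167, and Pir on the minus strand of chrX:33851000-33851299, with matches at -114 and -9.
Gclm: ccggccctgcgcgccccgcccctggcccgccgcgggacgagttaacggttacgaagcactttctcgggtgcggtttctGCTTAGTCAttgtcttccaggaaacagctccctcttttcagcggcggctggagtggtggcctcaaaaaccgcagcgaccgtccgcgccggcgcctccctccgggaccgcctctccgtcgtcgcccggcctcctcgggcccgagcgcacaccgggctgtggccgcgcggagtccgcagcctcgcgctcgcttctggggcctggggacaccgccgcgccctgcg
Me1: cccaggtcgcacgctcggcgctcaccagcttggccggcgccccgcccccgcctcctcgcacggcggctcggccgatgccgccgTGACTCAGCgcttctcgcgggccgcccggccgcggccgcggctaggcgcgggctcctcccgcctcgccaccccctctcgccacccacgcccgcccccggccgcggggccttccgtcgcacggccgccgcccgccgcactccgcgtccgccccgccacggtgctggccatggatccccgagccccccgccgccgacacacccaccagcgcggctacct
Pir: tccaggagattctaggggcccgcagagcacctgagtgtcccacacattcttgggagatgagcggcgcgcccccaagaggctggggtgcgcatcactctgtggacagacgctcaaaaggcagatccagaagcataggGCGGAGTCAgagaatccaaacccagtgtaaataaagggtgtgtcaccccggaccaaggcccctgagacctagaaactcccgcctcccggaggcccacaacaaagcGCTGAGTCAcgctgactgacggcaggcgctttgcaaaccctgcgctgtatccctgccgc
The Gclm and Pir matches read on the opposite strand and the Me1 match on the strand of the gene. Counted by gene, such a match stood in 13.1% of 27457 genes with promoters of this length and in 18.4% of the 212 of them called higher. It stood in 14.4% of the 90 called lower and in 3 of 11 called Nrf2 targets. A gene with several promoters counted once, as matched if any of them held a match. A match is a run of letters and not a measured site. The direct repeat of AGGTCA with 1 base between its copies, searched in the same way for the PPAR alpha element, stood in 0.0619% of all these genes and in none of those 212 or 90.

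Drug-metabolising genes changed in part. Of 27 members of the CAR and PXR list 4 rose and none fell (14.8% called, against 2.45% of all genes): Abcc3, Aldh1a1, Ces2c and Cyp3a23-3a1. Abcc3 and Aldh1a1 were also counted among the called Nrf2 targets. Cyp3a23-3a1, a steroid- and drug-oxidising Cyp3a form of rat liver, ran from 13.29 to 13.69 (median 13.51) in the low-dose arrays and from 13.60 to 14.45 (median 14.17) in the high-dose arrays, a 1.51-fold rise (log2 difference 0.60, SE 0.13, adjusted p = 0.0301). That call was lost without any of 7 single arrays, with an adjusted p up to 0.0795 without 64.6 mg/kg replicate 3, and the Cyp3a genes are close copies. The receptors themselves were not called: Nr1i3 (CAR) differed by 0.36 (interval -0.014 to 0.73) and Nr1i2 (PXR) by 0.16 (interval -0.024 to 0.35). Cyp2j4 and Cyp2j3, epoxygenases of arachidonic acid, rose 1.76-fold (adjusted p = 0.00465) and 1.33-fold (adjusted p = 0.0428), and Cyp2t1 fell 1.45-fold (adjusted p = 0.0313, and 0.0823 without 64.6 mg/kg replicate 3). Alas1, the rate-limiting enzyme of haem synthesis, lay between 10.68 and 11.10 (median 10.79) at the low doses and between 11.12 and 13.07 (median 11.75) at the high doses. Its pools did not overlap and it lay just outside the threshold (log2 difference 1.02, SE 0.25, adjusted p = 0.0543). Alas1 was called in 14 of 27 alternative runs.

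Among 11 genes of the aryl hydrocarbon receptor axis, Cyp1a2 was the sole call. This oxidase of aromatic amines and caffeine lay between 12.62 and 13.23 (median 13.02) at the low doses and between 12.28 and 12.60 (median 12.34) at the high doses, a 1.52-fold fall (log2 difference -0.61, SE 0.098, adjusted p = 0.00565). Its relative Cyp1a1, the most inducible target of that receptor, went the other way without passing: it read 6.06, 7.28 and 6.58 at 516.2 mg/kg and 8.71, 8.48 and 7.46 at 1032.5 mg/kg, against 5.54 to 6.34 at the low doses. The pooled difference was 1.48 (SE 0.36, adjusted p = 0.0543), and 1032.5 mg/kg alone against the low doses gave an adjusted p of 0.00125. The step from 516.2 to 1032.5 mg/kg was 1.58 on the log2 scale (adjusted p = 0.312).

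Of the conjugating enzymes, Ugt2b10 rose 1.39-fold (adjusted p = 0.0136) among 10 glucuronosyltransferase genes. Of 19 sulfotransferase genes, Sult2a6, which sulfates hydroxysteroids and bile acids, rose 1.61-fold (adjusted p = 0.0134). Sult1c3 lay between 13.25 and 13.55 (median 13.45) at the low doses and between 12.55 and 13.14 (median 12.89) at the high doses and fell 1.46-fold (log2 difference -0.54, SE 0.096, adjusted p = 0.01), and Sult1c2a fell 1.37-fold (adjusted p = 0.0151). Ces2c was the sole call among 14 carboxylesterases and paraoxonases. Of 24 ABC pumps Abcc3, Abcc4, Abcd2 and Abcd3 rose and Abcg8 fell (20.8% called, against 2.45% of all genes). None of 23 hepatic uptake transporters was called. Slc10a1, the sodium-dependent bile acid carrier, lay at 13.60 ± 0.096 at the low doses and 13.56 ± 0.11 at the high doses (SD, n = 6 each).

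The largest fall was that of Slc6a6, the taurine transporter. It read 8.20, 8.13 and 9.38 at 64.6 mg/kg and 8.78, 8.68 and 7.86 at 129.2 mg/kg. It then read 6.84, 6.28 and 6.28 at 516.2 mg/kg and 6.30, 6.02 and 6.09 at 1032.5 mg/kg. Every high-dose array lay below every low-dose array, as the rule for the largest falls required. The fall was 4.60-fold (log2 difference -2.20, SE 0.21, adjusted p = 0.000195), and the corn oil arrays stood higher still at 10.06 ± 0.27 (SD, n = 6). Csad and Cdo1, enzymes that make taurine, were not called. Csad differed by 0.090 (interval -0.14 to 0.32) and Cdo1, in the direction of Slc6a6, by -0.15 (interval -0.30 to -0.0049). Of the 25 genes of taurine transport and cysteine catabolism, Cth, which makes cysteine from cystathionine, was the remaining call at 1.36-fold lower (adjusted p = 0.0387), lost with array medians subtracted (adjusted p = 0.0675) and without 64.6 mg/kg replicate 3 (adjusted p = 0.0992).

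Stac3, an adaptor known from muscle calcium channels, ran from 10.41 to 11.34 (median 10.93) in the low-dose arrays and from 7.94 to 9.79 (median 8.71) in the high-dose arrays, a 3.95-fold fall (log2 difference -1.98, SE 0.27, adjusted p = 0.00203). Oat, the ornithine aminotransferase, lay between 9.88 and 10.45 (median 10.19) at the low doses and between 8.81 and 9.47 (median 8.99) at the high doses, a 2.24-fold fall (log2 difference -1.17, SE 0.12, adjusted p = 0.000244), with group means in order of dose of 10.12, 10.28, 9.84, 9.13 and 8.93. Tsc22d1, a leucine zipper transcription regulator, ran from 12.34 to 12.75 (median 12.49) in the low-dose arrays and from 10.63 to 11.84 (median 11.49) in the high-dose arrays, a 2.18-fold fall (log2 difference -1.13, SE 0.16, adjusted p = 0.00248), while its next probe set differed by -0.17 (adjusted p = 0.485). The membrane protein gene Cav2, a caveolin, lay between 8.09 and 9.11 (median 8.48) at the low doses and between 6.70 and 7.96 (median 7.15) at the high doses, a 2.38-fold fall (log2 difference -1.25, SE 0.21, adjusted p = 0.00863). For each of these 4 genes the pools did not overlap, which the rule for the largest falls required.

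Further falls concerned channels, receptors and secreted or surface proteins. Avpr1a, the hepatic vasopressin receptor, lay between 10.21 and 10.84 (median 10.57) at the low doses and between 8.47 and 9.97 (median 9.62) at the high doses, a 2.09-fold fall (log2 difference -1.07, SE 0.20, adjusted p = 0.0163). Aqp9, the channel through which hepatocytes take up glycerol, ran from 12.14 to 12.38 (median 12.22) in the low-dose arrays and from 11.04 to 11.81 (median 11.47) in the high-dose arrays, a 1.67-fold fall (log2 difference -0.74, SE 0.11, adjusted p = 0.00387), so that Aqp7 and Aqp9 moved in opposite directions. Icoslg, the ligand of a T cell costimulator, fell 1.70-fold (adjusted p = 0.00252), Ppp2r2b, a regulatory subunit of a protein phosphatase, 2.15-fold (adjusted p = 0.032), Oaf 1.70-fold (adjusted p = 0.023) and Synrg, a clathrin adaptor partner, 1.72-fold (adjusted p = 0.00823). The next probe set of Icoslg differed by -0.13 and that of Synrg by 0.042, and neither passed (adjusted p = 0.594 and 0.888). Without 64.6 mg/kg replicate 3 the calls of Ppp2r2b and Oaf were lost (adjusted p = 0.0791 and 0.0676).

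Of 21 bile acid genes Acot8 rose, and Fgfr4 and Slc27a5 fell, 14.3% called against 2.45% of all genes. Fgfr4, the receptor through which an intestinal growth factor restrains bile acid synthesis, lay between 9.39 and 9.53 (median 9.40) at the low doses and between 8.82 and 9.30 (median 8.89) at the high doses, a 1.38-fold fall (log2 difference -0.46, SE 0.082, adjusted p = 0.0105). Slc27a5, which activates bile acids with coenzyme A, fell 1.47-fold (adjusted p = 0.0451, and 0.119 without 64.6 mg/kg replicate 3). Its call was lost in 12 of 27 alternative runs. Cyp7a1, the rate-limiting enzyme of bile acid synthesis, lay between 10.82 and 13.07 (median 12.38) at the low doses and between 10.45 and 12.12 (median 11.81) at the high doses and was not called (log2 difference -0.58, interval -1.28 to 0.11, adjusted p = 0.433).

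In glucose handling, 3 of 29 members fell and 2 rose, 17.2% called against 2.45% of all genes. Pck1, the cytosolic PEP carboxykinase and a key step of gluconeogenesis, ran from 13.78 to 14.32 (median 14.05) in the low-dose arrays and from 12.85 to 13.75 (median 13.37) in the high-dose arrays, a 1.65-fold fall (log2 difference -0.73, SE 0.13, adjusted p = 0.00972). The corn oil arrays lay between the pools at 13.68 ± 0.24 (SD, n = 6). Its mitochondrial counterpart Pck2 rose 1.41-fold (adjusted p = 0.0198), and Pfkfb1, which sets the main activator of phosphofructokinase, rose 1.60-fold (adjusted p = 0.0445). The Pfkfb1 call was lost in 16 of 27 alternative runs, among them all 21 arrays in the fit (adjusted p = 0.184). Igfbp1, an insulin-repressed binding protein of IGF, lay between 9.47 and 11.11 (median 10.46) at the low doses and between 7.72 and 9.82 (median 9.03) at the high doses, a 2.73-fold fall with overlapping pools (log2 difference -1.45, SE 0.31, adjusted p = 0.0293), also lost in that fit (adjusted p = 0.1). Pck1 and Igfbp1 were the 2 falls among 19 glucocorticoid targets and metallothioneins as well.

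Amino acid genes showed 1 rise and 1 fall among 45 members of the list of ureagenesis and amino acid breakdown, Gpt and Oat. Gpt, the alanine aminotransferase, rose 1.41-fold (adjusted p = 0.03), a call lost with cyclic loess (adjusted p = 0.0527) and without 64.6 mg/kg replicate 3 (adjusted p = 0.0764). Of 37 genes of the ATF4 response 30 lay above 0 and the median was 0.19, yet 3 were called: Asns and Atf4 higher and Cth lower. Asns, the asparagine synthetase, ran from 8.20 to 9.69 (median 8.76) in the low-dose arrays and from 9.26 to 10.63 (median 10.09) in the high-dose arrays, a 2.22-fold rise with overlapping pools (log2 difference 1.15, SE 0.27, adjusted p = 0.0425), and Atf4, the transcription factor of the response, rose 1.37-fold (adjusted p = 0.0424). Both calls were lost, with adjusted p of 0.115 and 0.103 without 64.6 mg/kg replicate 3, and Atf4 passed in 1 of the 12 fits that left out an array. None of 35 chaperones and heat shock proteins was called, and P4hb, a disulfide isomerase, differed by -0.038 (interval -0.19 to 0.11).

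Proteasome subunits leaned higher with 1 call: 44 of 46 lay above 0, with a median of 0.17, and Psmd12 was called (log2 difference 0.35, adjusted p = 0.0343), which all 21 arrays in the fit took to 0.0516 and cyclic loess to 0.0609. The median was 0.12 with cyclic loess, which called none, and 0.20 with array medians subtracted, which called 3. Of 42 cytosolic ribosomal protein genes 39 lay above 0 with a median of 0.074. Their sole call, Rpl28, was below that lowest quartile in both pools (4.38 ± 0.073 at the low doses and 4.66 ± 0.10 at the high doses (SD, n = 6 each)) and was lost in each of the 12 fits that left out an array. None of 12 tubulin genes was called, and Tubb2a lay at 10.93 ± 0.47 at the low doses and 10.33 ± 0.48 at the high doses (SD, n = 6 each), against 12.51 ± 0.20 (SD, n = 6) on corn oil.

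Plasma protein genes leaned lower. Of 38 complement and coagulation genes 35 lay below 0, with a median of -0.15, and 3 were called. Mbl2, a mannose-binding lectin that starts complement, ran from 12.88 to 13.16 (median 13.03) in the low-dose arrays and from 12.19 to 12.75 (median 12.60) in the high-dose arrays, a 1.41-fold fall (log2 difference -0.50, SE 0.094, adjusted p = 0.0148). C1s, a protease of the classical pathway, fell 1.38-fold (adjusted p = 0.0188, and 0.0517 without 64.6 mg/kg replicate 3), and Serpind1, heparin cofactor II, 1.28-fold (adjusted p = 0.0149). Of 30 acute phase genes 26 lay below 0, and Itih1, which helps to cross-link hyaluronan, fell 1.29-fold (adjusted p = 0.0295, and 0.0593 with array medians subtracted). Lcn2, an acute phase protein also found in neutrophils, varied widely between arrays: it read 9.29, 10.40 and 7.02 at 64.6 mg/kg and 6.23, 8.47 and 6.27 at 516.2 mg/kg (adjusted p = 0.476). The lower Kupffer cell markers (median difference -0.37) are given above, and their part in these differences was not tested. The medians of the complement and acute phase lists, -0.15 and -0.099, were -0.17 and -0.11 with cyclic loess and -0.12 and -0.064 with array medians subtracted.

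Genes that growth hormone and sex regulate in rat liver leaned lower, with 29 of 34 below 0, a median of -0.15 and 5 called lower, 14.7% against 0.724% of all genes. Besides Stac3 and Igfbp1 these were Dhrs7l1, Socs2 and Ust5r. Dhrs7l1, a short-chain dehydrogenase, ran from 10.48 to 12.42 (median 11.93) in the low-dose arrays and from 8.77 to 11.40 (median 9.72) in the high-dose arrays, a 3.71-fold fall with overlapping pools (log2 difference -1.89, SE 0.42, adjusted p = 0.0338), which became 0.0934 without 64.6 mg/kg replicate 3. Socs2, the feedback inhibitor of growth hormone signalling, fell 1.59-fold (adjusted p = 0.0327) and the organic anion transporter gene Ust5r 1.32-fold (adjusted p = 0.0371). The list held 1 to 4 calls when each array was left out. Cyp2c11, the male-specific steroid hydroxylase, lay between 13.99 and 14.23 (median 14.15) at the low doses and between 12.59 and 13.85 (median 13.56) at the high doses. Its pools did not overlap and it lay at the threshold without passing (log2 difference -0.67, SE 0.16, adjusted p = 0.0503), while a fit without 1032.5 mg/kg replicate 1, its lowest array, gave an adjusted p of 0.0128.

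Of 26 steroid dehydrogenases Dhrs4, a peroxisomal carbonyl reductase, rose 1.31-fold (adjusted p = 0.0109) and Dhrs7l1 fell, and the next probe set of Dhrs4 differed by -0.029 (adjusted p = 0.92). In the 15 genes of thyroid hormone handling Me1 was the sole call. Of 30 interferon-stimulated genes Isg20, an exonuclease, rose 1.30-fold (adjusted p = 0.0371, and 0.0946 without 64.6 mg/kg replicate 2). None of 28 hepatocyte transcription factors was called, and Hnf4a differed by -0.18 (interval -0.39 to 0.038). In the 18 genes of haem synthesis and breakdown the sole call was Tfrc, described with the red cell markers. Zfp354a, a zinc finger gene, differed by 1.18 with wide pools (interval 0.30 to 2.06, adjusted p = 0.185).

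Cell cycle genes leaned higher, but the doses of the high pool disagreed. Of 68 measured genes 59 lay above 0, the median was 0.29, and Kif11, Mcm6, Spc24 and Spc25 rose while none fell. Spc24, a kinetochore protein, ran from 6.47 to 7.27 (median 6.95) in the low-dose arrays and from 7.23 to 8.41 (median 8.01) in the high-dose arrays, a 2.08-fold rise (log2 difference 1.06, SE 0.18, adjusted p = 0.00733), and Spc25, its partner, rose 1.72-fold (adjusted p = 0.0315, and 0.0857 without 64.6 mg/kg replicate 3). Kif11, a spindle motor, rose 1.57-fold (adjusted p = 0.00579) and Mcm6, of the replicative helicase, 1.46-fold (adjusted p = 0.0439), and the next probe set of Kif11 differed by 0.038 (adjusted p = 0.912). The mean level over the 68 genes was 6.11 at 64.6, 6.34 at 129.2, 6.63 at 258.1, 6.77 at 516.2 and 6.32 at 1032.5 mg/kg. Thus 59 of the 68 lay lower at 1032.5 than at 516.2 mg/kg, and 37 of them had an unadjusted p under 0.05 in that step, against 786 of 14217 genes (5.53%) that were lower. Between 64.6 and 129.2 mg/kg, 58 of the 68 lay higher at the larger dose, 12 of them with an unadjusted p under 0.05, against 347 of all genes (2.44%). After adjustment over all probe sets none was called in either step. The 5' minus 3' control signal also differed between 516.2 and 1032.5 mg/kg, with means of -2.30 and -1.54, and its part in that step was not tested. Cdkn3, a cyclin-dependent kinase phosphatase named here after its values were seen, had the smallest p between 516.2 and 1032.5 mg/kg, with group means of 4.88, 7.47, 8.96, 8.57 and 5.92 in order of dose (adjusted p = 0.161). The list held 2 to 8 calls when each array was left out, the most without 1032.5 mg/kg replicate 2.

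None of 22 p53 targets was called. Cdkn1a, whose product p21 blocks cyclin-dependent kinases, lay at 8.32 ± 0.39 at the low doses and 8.18 ± 0.46 at the high doses (SD, n = 6 each), with group means in order of dose of 8.04, 8.60, 8.60, 8.58 and 7.78 and corn oil arrays at 10.10 ± 0.53 (SD, n = 6). The 1032.5 mg/kg group was the lowest of the 5 and 516.2 mg/kg lay close to 129.2 and 258.1 mg/kg, and the sign of the pooled difference (-0.14, interval -0.57 to 0.30) turned for 516.2 mg/kg alone (0.26). Perp, a membrane target of p53, differed by 0.15 (interval -0.066 to 0.38). Of 31 immediate early and Kruppel-like factor genes Egr1, a zinc finger factor induced by growth stimuli, lay between 6.79 and 9.09 (median 7.86) at the low doses and between 5.85 and 7.03 (median 6.31) at the high doses, a 2.71-fold fall with overlapping pools (log2 difference -1.44, SE 0.29, adjusted p = 0.023). That call was lost with all 21 arrays in the fit (adjusted p = 0.0784) and without 1032.5 mg/kg replicate 1 (adjusted p = 0.0584).

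Most clock genes were not called between the pools, while several of them stood far from the corn oil arrays. Dbp, a transcription factor that the clock drives, ran from 9.61 to 10.47 (median 10.16) in the low-dose arrays and from 9.61 to 10.87 (median 10.49) in the high-dose arrays, with a difference of 0.27 (interval -0.12 to 0.66, adjusted p = 0.526), while the corn oil arrays averaged 5.78 ± 0.24 (SD, n = 6). Nfil3, a repressor of the same target elements, differed by 0.018 (interval -0.22 to 0.26) with corn oil arrays at 10.33 ± 0.29 (SD, n = 6). Hsd17b2, which oxidises oestradiol and testosterone, differed by -0.023 (interval -0.36 to 0.31) with corn oil arrays at 10.57 ± 0.24 (SD, n = 6), and Usp2, a deubiquitinase, by 0.48 (interval 0.018 to 0.95). Nr1d1, the repressor REV-ERB alpha, lay between 9.002 and 9.65 (median 9.13) at the low doses and between 8.35 and 9.55 (median 8.61) at the high doses and was not called (log2 difference -0.47, adjusted p = 0.208), although without 516.2 mg/kg replicate 1 the adjusted p was 0.0194. Per3, a period gene, differed by -0.073 (interval -0.52 to 0.38).

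**Figure D5:**
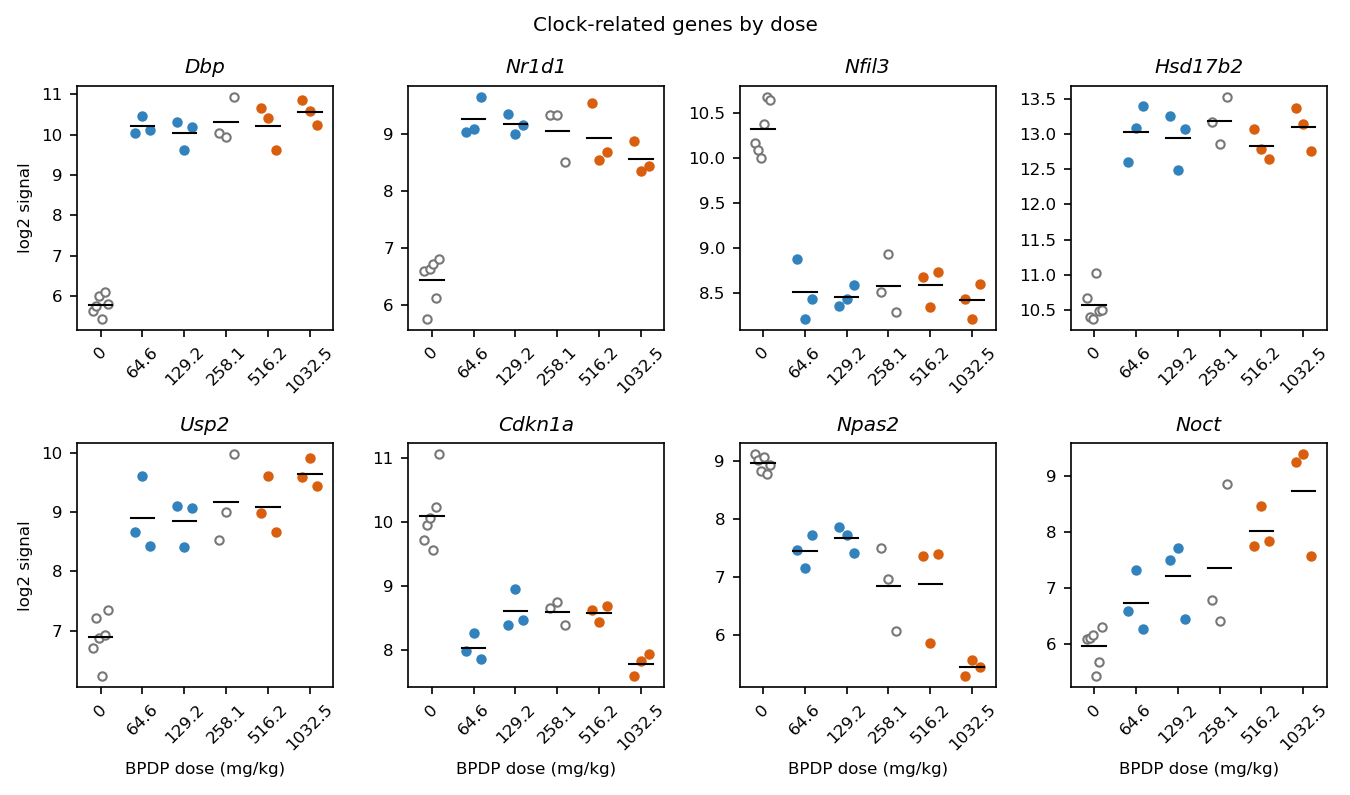
Log2 signal (vertical axis) of 8 genes in every array, by BPDP dose in mg/kg (horizontal axis, 0 is corn oil). Colours are as in the plot of the largest differences: blue for low doses, orange for high doses, open circles for arrays outside the comparison and bars for group means; for Dbp, Nfil3 and Hsd17b2 blue and orange points share a range that no corn oil array enters.

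A few clock genes did change along the doses. Of 16 core clock genes Npas2, an activator that pairs with Bmal1, was called. It read 7.36, 5.88 and 7.40 at 516.2 mg/kg and 5.31, 5.59 and 5.46 at 1032.5 mg/kg, against 7.15 to 7.87 at the low doses. The fall (log2 difference -1.39, SE 0.33, adjusted p = 0.0468) thus rested on 4 of the 6 high-dose arrays, and its call was lost in 16 of 27 alternative runs. These included cyclic loess (adjusted p = 0.055), array medians subtracted (adjusted p = 0.0611) and the fit without 64.6 mg/kg replicate 3 (adjusted p = 0.119). Bmal1 lay between 6.34 and 7.36 (median 6.66) at the low doses and between 5.46 and 6.65 (median 6.04) at the high doses and was not called (log2 difference -0.74, interval -1.15 to -0.33, adjusted p = 0.0711). Of 16 output genes Hlf, Noct and Wee1 rose and Avpr1a fell. Hlf, a relative of Dbp, ran from 8.78 to 9.32 (median 8.97) in the low-dose arrays and from 9.37 to 9.79 (median 9.56) in the high-dose arrays, a 1.49-fold rise (log2 difference 0.58, SE 0.11, adjusted p = 0.0144). Wee1, a kinase that delays mitosis, rose 1.58-fold (adjusted p = 0.00876), with the next probe set at 0.48 (adjusted p = 0.113), and Noct, a phosphatase of NADP cofactors, rose 2.65-fold with overlapping pools (adjusted p = 0.0461, and 0.125 without 64.6 mg/kg replicate 3).

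The doses within each pool were not separated by the test. In a fit with 1 coefficient a dose, no probe set was called between 1032.5 and 516.2 mg/kg, with 2381 (7.67%) at an unadjusted p under 0.05. None was called between 129.2 and 64.6 mg/kg either, with 1291 (4.16%) at that level. Leaving out 516.2 mg/kg replicate 2 gave 85 calls within the high pool, 1032.5 mg/kg replicate 3 gave 20 and 1032.5 mg/kg replicate 1 gave 2. Each dose nonetheless weighed differently on the pooled result: 1032.5 mg/kg alone against the low doses called 331 genes and 516.2 mg/kg alone 87. The high doses called 195 genes against 64.6 mg/kg alone and 31 against 129.2 mg/kg alone, fits with 3 arrays fewer than the pooled one.

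Levels at 258.1 mg/kg, which the test did not use, lay between the pools for most called genes. The 258.1 mg/kg mean lay between the pool means for 324 of the 348 called genes, short of the low pool for 10 and past the high pool for 14. Its median position was 56.2% of the way from the low to the high mean, and 201 genes were past the midpoint. Called genes were picked for a difference between the pools, which in itself favours a level between them. These positions are therefore a description and no test. For Slc6a6 the group means in order of dose were 8.57, 8.44, 7.06, 6.47 and 6.14, and for Ces2c 10.44, 10.57, 11.59, 12.08 and 12.83. For Vnn1 they were 10.21, 10.82, 11.63, 11.76 and 11.84, so that the level at 258.1 mg/kg had reached the high pool. For Aqp9 they were 12.25, 12.21, 12.03, 11.69 and 11.29, with 258.1 mg/kg still close to the low pool.

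Of 83 called genes among the 112 named by rule, 51 kept their call when any single array was left out. Acot1, Acot2, Ces2c, Gsta3, Gsta4, Oat, Pir, Slc6a6, Vnn1 and Zdhhc2 kept it in every alternative run, the comparisons against a single dose included. Of the 348 called genes 95 stood on a list and 253 on none.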

How the data were processed

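Total RNA (100 ng) from each liver was labelled with biotin and hybridised to an Affymetrix rat expression array, per the labels' protocols. The authors summarised each probe set by RMA, per the submitters' processing notes, and the deposited values are on the log2 scale. What software ran RMA is not given in the sources used here. No further scaling, filter or pseudocount was applied, and all 12 columns compared were matched to samples by title. After 57 array controls were set aside, 31042 probe sets were tested. The platform annotation names 1 gene for 20826 of them, several for 436 and none for 9780. Symbols were updated through the RefSeq gene table of GRCr8 (20758 by Entrez identifier, 2 by accession, 66 kept). A gene was represented by its probe set with the highest mean over the 12 arrays, which gave 14217 genes. Array values carry no read depth, so the number of arrays limits precision.

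High minus low was fitted with limma 3.58.1 in R 4.3.3 (lmFit and eBayes) on 12 arrays in 2 pools of 6, two-sided, with Benjamini-Hochberg adjustment over all probe sets and a threshold of 0.05. Standard errors and 95% intervals are limma's moderated ones, and a fold is 2 to the power of the log2 difference. Where a pool averaged under 4.95, the lowest of the arrays' lower quartiles, levels stand in place of a fold. The 52 lists held 1606 entries, 1342 of them measured, and some genes stand on several lists. Members, lists, tests and alternatives were chosen with earlier results of these data known, so no pattern here is independent support of an earlier one.

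The rule for named genes took the 15 largest rises and 15 largest falls among called genes whose pools did not overlap. It added up to 5 each way whose corn oil mean lay at or beyond the high-dose mean, up to 3 called members of each list (or the brightest member where none was called) and a fixed set of index genes, 112 in all. Members named outside this rule illustrate a list and were chosen after their values were seen.

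Alternatives were a coefficient for each dose, all 21 arrays in the fit, cyclic loess, median subtraction, the brighter probe sets alone, 1 probe set a gene in the fit, gene means, another probe set, a variance trend with robust estimation, array weights, the replicate number as a block, RNA integrity as a covariate, each dose alone, a fold of at least 1.5 and each array left out in turn. Scripts were tested on simulated data. Promoters came from RefSeq tables of GRCr8, which held 97 of the 112 named genes.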

Additional observations from a re-analysis of the deposited data

Results flagged for a closer look

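Within a pool of 6 arrays, a value was marked when its gap to the nearest other array exceeded Dixon's 95% critical value. Chance marks about 1 in 20 groups, and 9 of 228 groups tested were marked.

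Of the low-dose arrays, Fgfr4 read 9.53 in 64.6 mg/kg replicate 3 against 9.39 to 9.41 in the other 5. Lyz2, the macrophage lysozyme, read 10.57 in 64.6 mg/kg replicate 1 against 11.07 to 11.28. Pdgfra, the stellate cell receptor, read 8.04 in 129.2 mg/kg replicate 1 against 8.44 to 8.51, a value inside the range of the high doses.

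Of the high-dose arrays, Acot8, the peroxisomal thioesterase, read 10.33 in 1032.5 mg/kg replicate 3 against 9.67 to 9.90. Cyp2c11, the male-specific hydroxylase, read 12.59 in 1032.5 mg/kg replicate 1 against 13.47 to 13.85. Cyp7a1, of bile acid synthesis, read 10.45 in 1032.5 mg/kg replicate 2 against 11.60 to 12.12. Lcn2, an acute phase gene, read 8.47 in 516.2 mg/kg replicate 2 against 5.79 to 6.27. Lyve1, an endothelial receptor for hyaluronan, read 9.82 in 516.2 mg/kg replicate 1 against 10.57 to 10.77. Slc6a6, the taurine transporter, read 6.84 in 516.2 mg/kg replicate 1 against 6.02 to 6.30, still below every low-dose array.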

How the results depend on the processing

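Against 502 probe sets and 348 genes called, array weights gave 841 and 572, the replicate number as a block 819 and 555, and RNA integrity as a covariate gave 754 probe sets. The high doses against 64.6 mg/kg alone gave 285 and 195, against 129.2 mg/kg alone 40 and 31, and 516.2 mg/kg alone against the low doses 121 and 87. Requiring a fold of at least 1.5 as well gave 196 and 138. The counts under the other alternatives that kept all 12 arrays, and with 1032.5 mg/kg alone, stayed within 1.5 times. With each array left out in turn, 226 to 774 probe sets and 158 to 533 genes were called, the fewest without 64.6 mg/kg replicate 3 and the most without 129.2 mg/kg replicate 1. Fewer probe sets, by more than 1.5 times, were also called without 64.6 mg/kg replicate 2 (285), 129.2 mg/kg replicate 3 (280), 1032.5 mg/kg replicate 1 (284) and 1032.5 mg/kg replicate 3 (325). Within the high pool, 0 to 85 probe sets were called between the doses.

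The labels share replicate numbers between doses and do not say what a number marks. Same-numbered arrays deviated together at r between -0.092 and 0.394, over 0.1 in 9 of 18 pairs, so the numbers were not taken to pair the samples. The best match in another dose had the same number in 21 of 36 comparisons, where no relation would give 12, a hint of sharing from the data. The block of 819 probe sets is therefore an alternative only.

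Differences near 0 changed sign under some alternatives. Cyclic loess gave 0.0018 for Alb and -0.024 for Nfil3, median subtraction 0.030 for Alb and 0.012 for Hsd17b2, and array weights -0.0045 for Nfil3. With 1032.5 mg/kg alone Hsd17b2 differed by 0.11, Nfil3 by -0.065 and Per3 by 0.16, and with 516.2 mg/kg alone Cdkn1a by 0.26, Lyve1 by -0.030 and Slc10a1 by 0.022. Against 64.6 mg/kg alone Cdkn1a differed by 0.15 and Nfil3 by -0.0061, and against 129.2 mg/kg alone Hsd17b2 by 0.022, Lcn2 by 0.17, Lyve1 by -0.040 and Per3 by 0.060. The next probe set gave -0.036 for Aig1, 0.0029 for Alb, -0.029 for Dhrs4, -0.0016 for Lyve1 and 0.042 for Synrg. With single arrays left out the difference ranged over -0.0025 to 0.29 for Fasn, -0.12 to 0.060 for Hsd17b2, -0.033 to 0.21 for Lyve1, -0.035 to 0.097 for Nfil3 and -0.21 to 0.084 for Per3. Of these genes Aig1, Dhrs4 and Synrg were called. The causes were not tested.

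Limits are the 3 rats a dose, the pooling of doses that differ from each other, and probe sets of dim signal or of near-identical genes. Of the 83 called named genes, 32 lost the call without at least 1 array, most often with 64.6 mg/kg replicate 3 left out.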

Other observations

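The 6 corn oil arrays stood outside the comparison, and their levels are given as values. Placed on the line from the low-dose mean to the high-dose mean of each called gene, the corn oil mean lay at or beyond the low-dose end for 217 of 348 genes. It lay in the nearer part of the line, short of the midpoint, for 118, past the midpoint for 12 and at or past the high-dose end for 1. That gene was Bhlha15, a secretory cell transcription factor named after its values were seen, with 6.32 ± 0.46 at the low doses and 7.14 ± 0.31 at the high doses (SD, n = 6 each) and 7.19 ± 0.26 (SD, n = 6) on corn oil.

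Several called genes had a corn oil level well beyond the low-dose level. Ces2c averaged 8.99 on corn oil, 10.51 at the low doses and 12.46 at the high doses. Akr7a3 averaged 11.35, 12.53 and 13.48, and Slc6a6 10.06, 8.50 and 6.30. Others stood level with the low doses on corn oil: Acot2 averaged 9.78, 9.74 and 11.25, and Sult1c3 13.44, 13.44 and 12.90. In the peroxisomal importer Abcd2 the corn oil mean of 5.72 lay above the low-dose mean of 5.41 and below the high-dose mean of 6.66. No group was tested against the corn oil arrays.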
